A study of Mus musculus with 4 samples.

Results

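The 6 myosin light chain genes Myl2, Myl3, Myl4, Myl6, Myl7 and Myl9 were followed through a table of marker genes from single cells of a mouse cardiac differentiation. They were taken by name, and all 6 are among the 1197 genes of the table, where they account for 31 of 2212 entries. The cells came from a mouse embryonic stem cell line in which BRG1, an ATPase of the BAF chromatin remodelling complex, carries a FLAG tag. They passed through a directed differentiation towards heart and were profiled as 10x droplet libraries, which were Brm knockout mesoderm, wild-type mesoderm, Brm knockout cardiac progenitors and wild-type cardiac progenitors, 1 library each. All 4 libraries share the tagged BRG1 allele, and the knockout libraries also lack Brm, the alternative ATPase that Smarca2 encodes. Whether a genotype is 1 clone is not stated.

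Which of the libraries supplied cells to the table is not stated. Each entry sets 1 of 15 numbered clusters against all other cells and carries no library name. Genotypes and stages were therefore not compared, none of the values has a replicate, and nothing was tested. Because the clusters rest on those very expression values, a high or low gene in a cluster is a description of that cluster. Smarca2 had 0 entries, which says only that it passed the table's thresholds in no cluster. Cell numbers and read depth are unknown. An entry needed an absolute natural log fold change of at least 0.50, which is 1.65-fold, and the larger of its detection shares was at least 25.1%.

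Myosin is built from a pair of heavy chains, each of which carries an essential and a regulatory light chain on its lever arm. The light chains stiffen that arm, and phosphorylation of the regulatory chain tunes the force in heart muscle and switches contraction on in smooth muscle. Myl7 and Myl2 encode the regulatory chains of atrial and ventricular muscle. Myl4 and Myl3 encode the matching essential chains, Myl4 being the atrial and embryonic form and Myl3 the form of ventricle and slow skeletal muscle. Myl9 encodes a regulatory chain of smooth muscle and non-muscle myosin, and Myl6 their essential chain, which most cell types make. In the early heart tube the atrial forms are not yet restricted to the atria.

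The promoters of 3 members, and an internal start of the fourth, are shown because each holds a CArG box, the site bound by serum response factor (SRF), and because these genes were all high in the same cluster. Each sequence runs 5′ to 3′ on the gene's strand up to a start site, with the CArG box in capitals. Sequences and coordinates are from RefSeq on GRCm38.p6, a later build than the mm9 named in the submitters' processing notes, and no coordinate came from the study's own table. The Myl3 and Myl9 stretches end where the annotated transcripts begin.
Myl7, chr11:5898783-5899032, minus strand: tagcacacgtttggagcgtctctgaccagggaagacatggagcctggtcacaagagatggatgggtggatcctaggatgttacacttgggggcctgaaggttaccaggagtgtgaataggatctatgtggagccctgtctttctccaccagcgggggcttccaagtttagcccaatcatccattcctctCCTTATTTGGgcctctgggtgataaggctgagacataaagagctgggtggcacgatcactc
Myl3, chr9:110763428-110763645, plus strand: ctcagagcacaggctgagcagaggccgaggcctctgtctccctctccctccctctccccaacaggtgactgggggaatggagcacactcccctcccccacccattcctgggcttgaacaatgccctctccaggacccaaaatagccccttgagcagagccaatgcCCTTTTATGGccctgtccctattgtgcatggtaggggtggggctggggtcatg
Myl9, chr2:156775214-156775407, plus strand: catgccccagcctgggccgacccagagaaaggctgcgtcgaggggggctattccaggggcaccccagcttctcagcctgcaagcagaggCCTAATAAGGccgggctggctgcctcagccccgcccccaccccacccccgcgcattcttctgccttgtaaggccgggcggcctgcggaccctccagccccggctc
Myl6 internal start, chr10:128493010-128493259, minus strand: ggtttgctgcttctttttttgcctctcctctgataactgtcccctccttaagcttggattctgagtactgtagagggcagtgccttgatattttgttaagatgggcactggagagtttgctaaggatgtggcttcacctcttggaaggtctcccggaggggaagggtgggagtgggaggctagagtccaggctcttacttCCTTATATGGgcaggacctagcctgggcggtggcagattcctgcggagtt
The CArG box ends 52 bases before the start site in Myl7, 76 bases before it in Myl3, 152 bases before it in Myl9, counted from the start site in RefSeq, and 41 bases before the internal start of Myl6. That internal start lies 866 bases from the nearest principal transcript start of Myl6, and the 250 bases before the main Myl6 start held no CArG box.

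Both strands of the 250 bases before each start were searched for 6 motifs. A CArG box was present in 1.47% of the 32851 mouse promoters searched and, counting any entry of a gene, in 1.62% of 27025 genes. It was in at least 1 entry of 4 of the 6 members, in Myl6 only at the internal start. Of the 203 genes listed higher in cluster 2 that had a promoter entry, 15 held one (7.39%). The 6 members are among these 203, so this is not a separate group. Among 21 heavy chain, thin filament, thick filament and Z disc genes higher in cluster 2, also part of the 203, 5 did. M-CAT, the TEAD site CATTCC, is in 12.6% of all promoters and was found in Myl7 and Myl3, without overlap with the CArG box. The GATA site AGATAA, in 9.99% of promoters, was found in an Myl2 entry, and the TATA box TATAAA, which 12.4% hold, in the other Myl2 entry, and neither in a further member. The MEF2 site, in 3.20% of promoters, and the Nkx2-5 site TNAAGTG, in 10.1%, matched no member. The Myl4 entry matched none of the 6 motifs. The 2 Myl2 entries lie 8227 and 7762 bases from its principal transcript start, so the bases before that start were not searched for any motif. AGATAA was the only form of the GATA site searched, so other forms in the members were not counted. A match of letters is not a shown binding site.

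All 6 light chain genes were higher in cluster 2, where 22.7% of the table's genes were listed higher. Their median fold there was 24.96, against 2.30 over the 272 genes listed higher. Cluster 2 listed 12 of 14 fixed cardiomyocyte markers as higher, including Tnnt2, Actc1, Ttn and Nkx2-5, and is called cardiomyocyte-like. It held an estimated 12.6% of all cells, solved from the detection shares of 407 genes. Along with the cardiac markers it listed 4 of 7 smooth muscle markers as higher (Acta2, Des, Cnn1 and Tagln), which is all 4 that the table holds. Whether cells of that type lie in the cluster was not tested.

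**Figure D1:**
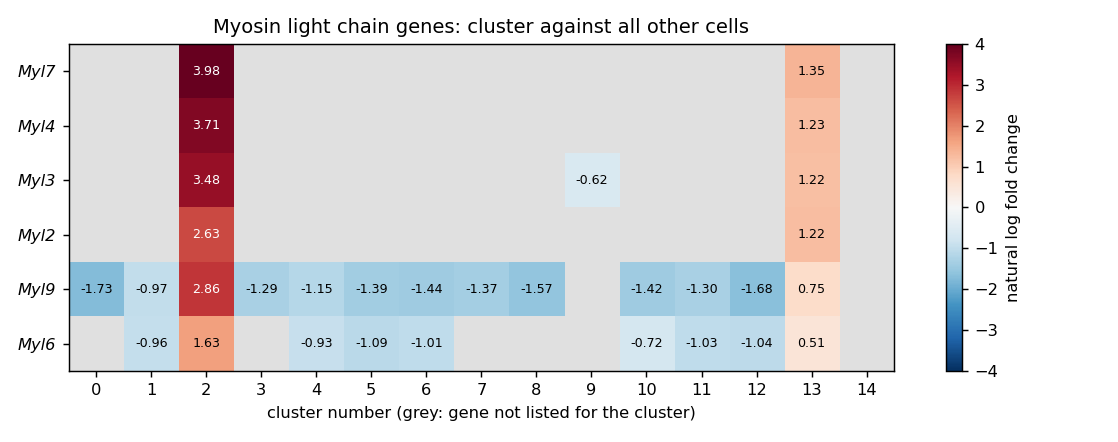
Natural log fold change of each myosin light chain gene (down) in each of the 15 clusters (across) against all other cells, from the authors' deposited table; grey marks a gene that is not listed for a cluster. All 6 genes are higher in clusters 2 and 13, and the 19 lower entries belong to Myl9, Myl6 and, in cluster 9, Myl3.

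The regulatory chains of heart muscle differed in reach within cluster 2. Myl7 was 53.5-fold higher by the authors' deposited table, detected in 98.4% of the cluster's cells and in 8.0% of the others, and ranked 2 among the 272 higher genes. Myl2, the ventricular regulatory chain, was 13.9-fold higher by the authors' deposited table, with detection in 74.5% of cluster 2 cells and 1.5% of the others. Myl2 thus had the lowest detection of the 6 genes inside the cluster and the lowest outside it. From these shares at least 72.9% of the cells of cluster 2 must have detected both Myl7 and Myl2, so most cells held transcripts of the atrial and the ventricular regulatory chain together.

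The essential chains followed the same order. Myl4 was 40.8-fold higher by the authors' deposited table, with detection in 96.7% of cells inside and 3.3% outside. Myl3, the ventricular form, was 32.4-fold higher by the authors' deposited table, with detection in 94.2% inside and 2.4% outside. In both chain classes the atrial gene therefore had the higher fold and the wider detection, and the gap was larger for the regulatory pair. All 4 muscle chains must have been detected together in at least 63.8% of cluster 2 cells.

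The light chains of smooth muscle and non-muscle myosin were also higher in cluster 2. Myl9 was 17.5-fold higher by the authors' deposited table, with detection in 97.4% of cells inside and 16.9% outside. Myl6 was 5.08-fold higher by the authors' deposited table, with detection in 97.8% of the cluster's cells and already in 56.8% of the others. Folds of different genes are set side by side here as differences, not as levels. An unknown constant, added by the authors ahead of the logarithm, shrinks the fold of a weakly expressed gene more, so the lower fold of Myl2 may be understated.

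**Figure D2:**
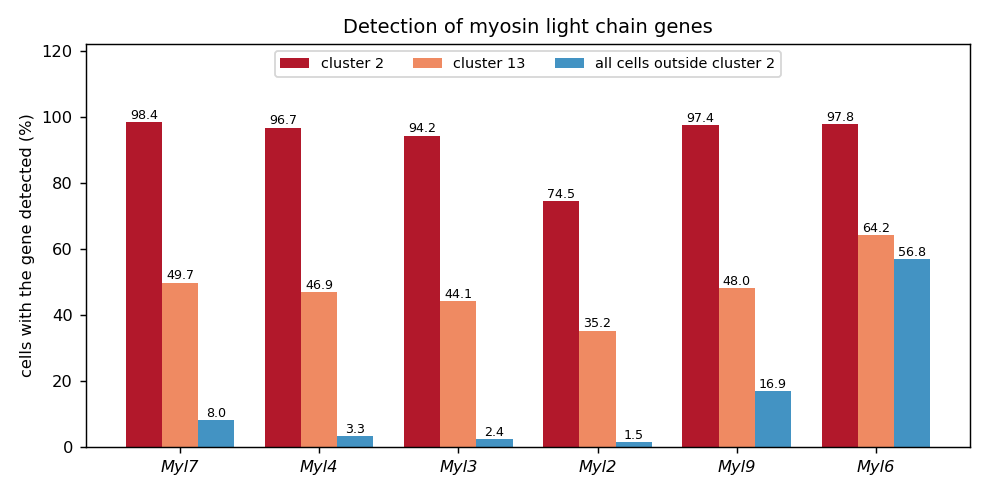
Percent of cells in which each myosin light chain gene was detected, in cluster 2 (left bar), in cluster 13 (middle bar) and in all cells outside cluster 2 (right bar), from the authors' deposited table. Detection in cluster 2 is at least 94.2% for all genes except Myl2 at 74.5%, and outside it only Myl9 and Myl6 exceed 8.0%.

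Cluster 2 held most of the cells that detected a muscle light chain. Its share of all detecting cells, worked out from the authors' deposited table and the cluster sizes, was 87.8% for Myl2, 85.0% for Myl3, 80.9% for Myl4 and 64.0% for Myl7. For Myl9 the share was 45.5% and for Myl6 19.95%. Fold and concentration ran in opposite order among the 4 muscle chains: Myl7 had the highest fold and the least concentrated detection, and Myl2 the lowest fold and the most concentrated detection. In the clusters that do not list them, Myl7 was detected in 7.77% of cells on average, Myl4 in 3.02%, Myl2 in 1.30% and Myl3 in 0.981%. The Myl3 value leaves out cluster 9, which lists Myl3 but not the other 3. Over all cells outside clusters 2 and 13, Myl3 was detected in 2.14%, above Myl2 at 1.30%. Free RNA in droplets can give such low shares, and its part was not tested. Its effect would also depend on depth, which is unknown. A cluster does not list these genes wherever detection inside and outside it both stay below about 25.1%, so an unlisted cluster can still differ in them.

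**Figure D3:**
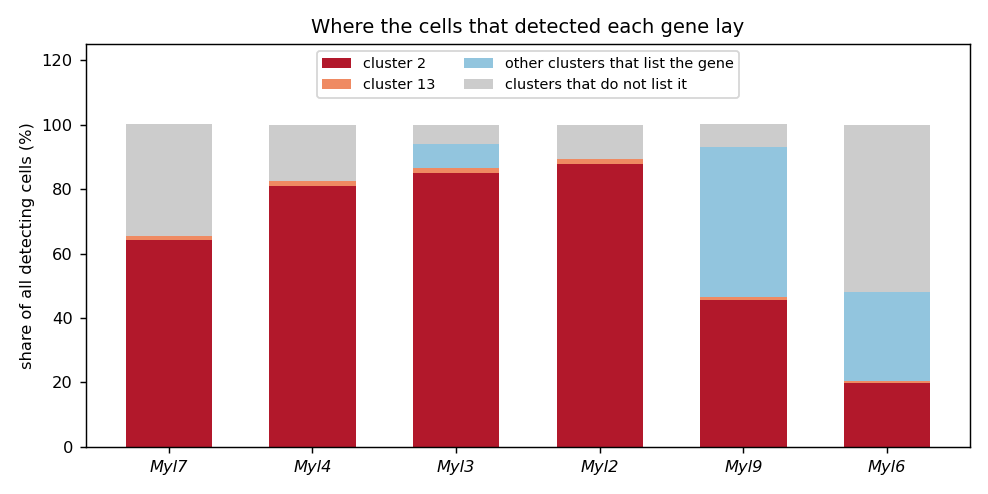
Share of all cells detecting each gene that lay in cluster 2, in cluster 13, in other clusters that list the gene and in clusters that do not, computed from the authors' deposited table. Cluster 2 holds 64.0% to 87.8% of the detecting cells for the 4 muscle chains, 45.5% for Myl9 and 19.95% for Myl6.

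The genes around the light chains in the myosin motor were counted by fixed lists. Of 14 myosin heavy chain genes, 3 were in the table. Myh7 and Myh6, the heavy chains of heart muscle, were 15.6-fold and 14.8-fold higher in cluster 2 by the authors' deposited table. Myh10, the non-muscle heavy chain IIB, was instead 1.87-fold higher in cluster 9 by the authors' deposited table. Of 6 further light chain genes, Myl12a, a regulatory chain of non-muscle myosin, was the only 1 in the table. It was 2.03-fold higher in cluster 2, with detection in 85.3% inside and 60.6% outside, and 2.05-fold higher in cluster 9, by the authors' deposited table. In cluster 12, where all 3 neuron markers in the table were higher, Myl12a was 2.31-fold lower by the authors' deposited table.

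Of 15 genes of light chain phosphorylation, 4 were in the table, and 2 of them were higher in cluster 2. Mylk3, the cardiac myosin light chain kinase, was 2.23-fold higher and was detected in 26.9% inside against 0.6% outside, by the authors' deposited table. Ppp1cb, the catalytic subunit of myosin phosphatase, was 1.78-fold higher by the authors' deposited table. Calm2, which encodes calmodulin, the activator of the classical light chain kinase, was 1.72-fold lower in cluster 2 by the authors' deposited table.

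Thin filament genes split by isoform in cluster 2, with 8 of the 12 in the table higher and 4 lower, where 25.7% of all its genes were listed lower. The muscle actins Actc1, Acta2 and Acta1 were 58.9-fold, 23.1-fold and 21.3-fold higher, and the troponins Tnnt2 and Tnni1 35.2-fold and 26.4-fold higher, by the authors' deposited table. The cytoplasmic actins Actb and Actg1 were 2.07-fold and 2.21-fold lower, and the tropomyosins Tpm3 and Tpm4 2.18-fold and 1.68-fold lower, by the authors' deposited table. Elsewhere Tpm3 was 1.70-fold higher in cluster 3 and Actb 1.66-fold higher in cluster 7, both with lower Myl9, and Actg1 was 2.05-fold lower in cluster 13, by the authors' deposited table. The non-muscle light chains Myl6 and Myl12a were thus higher in the cluster in which the cytoplasmic actins were lower. All 12 genes of the thick filament and Z disc list that are in the table were higher in cluster 2, with a median of 5.26-fold.

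Each member was matched to the 3 genes with the nearest pattern of natural log fold changes over the 15 clusters, counting 0 where a gene was not listed. Myl2 lay nearest to the heavy chain Myh6 at a distance of 0.063, then to Sh3bgr at 0.14 and the other heavy chain Myh7 at 0.20. Myl4 was nearest to Tnnt2 at 0.15, Myl7 to Actc1 at 0.41 and Tnnt2 at 0.43, and Myl3 to Tnnt2 at 0.62. Actc1 and Ttn completed the trio for Myl4 and Myl3, and Ttn that for Myl7. Among the members themselves Myl4 and Myl7 were the nearest pair, at 0.30. Myl9 lay nearest to Gpx3 at 1.40, then to the glycogenin gene Gyg at 1.94 and to the tropomyosin Tpm1 at 2.62. Myl6 lay nearest to Rbpms at 0.96, then to the glucose transporter gene Slc2a1 at 1.48 and to Tpm1 at 1.92. Myl9 and Myl6, at a distance of 3.44 from each other, were each nearer to Tpm1 than to one another.

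Cluster 13 also listed all 6 light chains as higher, where 5.35% of the table's genes were listed higher. It held 0.497% of cells and 9 of the 14 cardiomyocyte markers were higher in it, but it was left unnamed because its smallest p-values belong to mitochondrially encoded genes. Myl7 was 3.85-fold higher with detection in 49.7% inside and 19.3% outside, by the authors' deposited table. Myl4, Myl2 and Myl3 lay close together at 3.42-fold, 3.39-fold and 3.37-fold, with detection in 46.9%, 35.2% and 44.1% of the cluster's cells, by the authors' deposited table. Myl9 was 2.12-fold higher and detected in 48.0% inside against 27.0% outside by the authors' deposited table. Myl6 was 1.67-fold higher, just past the table's threshold, with 64.2% inside and 61.9% outside, and its adjusted p by the authors' deposited table, which compares cells and not replicates, was 1.

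The levels in clusters 13 and 2 were put on one scale, relative to the mean of all cells and including the authors' constant. On it Myl2 in cluster 13 reached 63.4% of its level in cluster 2, Myl7 54.2%, Myl3 51.2%, Myl4 49.9%, Myl6 49.8% and Myl9 37.1%. Detection was closer to uniform. The share of cells detecting a muscle light chain in cluster 13 was between 46.8% (Myl3) and 50.5% (Myl7) of the share in cluster 2, for Myl9 it was 49.3% and for Myl6 65.6%. Other sarcomere genes higher in both clusters covered a like range of levels, from 32.0% to 61.7% with a median of 51.9% over 14 genes, beside 50.6% for the light chains. Sarcomere genes higher in cluster 2 but not listed for cluster 13, such as Acta2 (23.1-fold in cluster 2), are not among the 14. The table's threshold therefore bears on the lower end of that range and on its median. The 4 mitochondrially encoded genes higher in both clusters reached 153% to 177% in cluster 13, and the part of this in the light chain values was not tested.

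**Figure D4:**
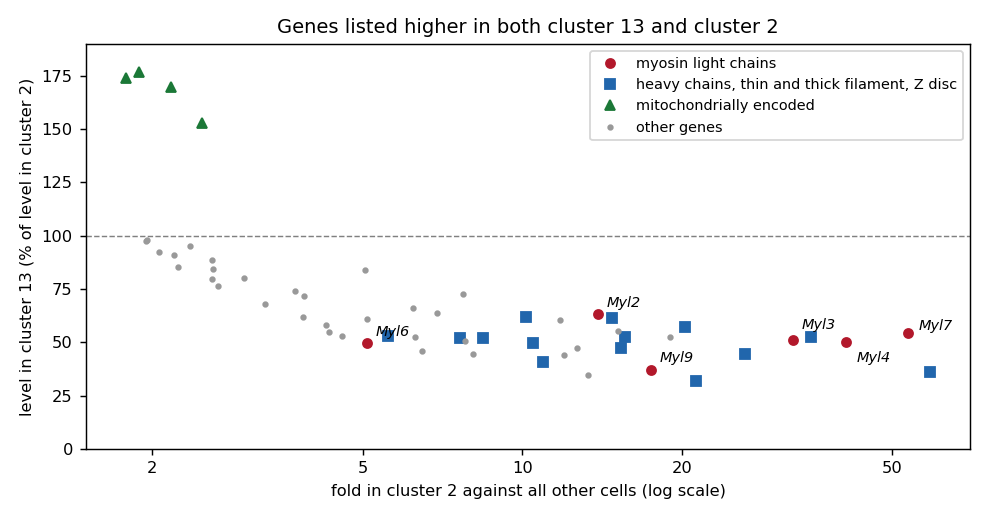
Level in cluster 13 as a percent of the level in cluster 2 (vertical) against the fold in cluster 2 over all other cells (horizontal, log scale), for the genes listed higher in both clusters (computed from the authors' deposited table). All 6 light chains lie between 37.1% and 63.4%, beside the other sarcomere genes at 32.0% to 61.7%. A gene must be at least 1.65-fold higher in cluster 13 to appear, which sets a lower edge that falls as the fold in cluster 2 rises.

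Myl9 was the member with the widest pattern. It was listed for 13 of the 15 clusters, a breadth that 3 genes of the table reach, Myl9 included. It was lower in 11 clusters, and the share of the table's genes listed lower was 3.76% in cluster 0, 2.59% in cluster 1, 3.01% in cluster 3, 2.42% in cluster 4 and 4.26% in cluster 5. That share was 2.17% in cluster 6, 2.84% in cluster 7, 4.26% in cluster 8, 4.09% in cluster 10, 1.59% in cluster 11 and 3.84% in cluster 12. Its largest falls by the authors' deposited table were 5.61-fold in cluster 0, 5.35-fold in cluster 12 and 4.79-fold in cluster 8. Clusters 6, 10, 5 and 7 followed at 4.21-fold, 4.12-fold, 4.02-fold and 3.94-fold lower by the authors' deposited table. The smallest falls by the authors' deposited table were 3.65-fold in cluster 11, 3.63-fold in cluster 3, 3.16-fold in cluster 4 and 2.65-fold in cluster 1. In the neuron-like cluster 12 only 7.1% of cells detected Myl9, against 27.4% outside it, by the authors' deposited table. In cluster 11 detection was 23.0% inside and 27.2% outside by the authors' deposited table, and the adjusted p there, which compares cells, was 0.119.

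Relative to the mean of all cells, the Myl9 level was 567% in cluster 2 and 210% in cluster 13. It was 41.2% in cluster 1, 33.6% in cluster 4 and 29.8% in cluster 3. Clusters 11, 7, 5, 6 and 10 lay between 27.7% and 24.8%, and clusters 8, 0 and 12 were lowest at 21.9%, 20.4% and 18.9%. Neighbours in this order cannot be told apart, because no replicate gives their spread. Clusters 9 and 14 do not list Myl9, and the balance leaves them a joint level of 106% and joint detection of 54.6% of cells. Because cluster 14 is so small, at 0.291% of cells, the share of cluster 9 cells with Myl9 is estimated at 50.5% to 59.5%. The level there is estimated at no more than 115% of the mean. Both estimates take the solved sizes and the balance as exact. Detection of Myl9 over all cells differed by 0.0803 percentage points between its entries, which would widen the range. None of the 11 clusters with lower Myl9 exceeded a detection of 23.0%.

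Myl6 was lower in 7 clusters, and Myl9 was lower in all 7 of them. The Myl6 falls by the authors' deposited table were 2.96-fold in cluster 5, 2.84-fold in cluster 12, 2.79-fold in cluster 11 and 2.74-fold in cluster 6. In clusters 1, 4 and 10 it was 2.61-fold, 2.54-fold and 2.05-fold lower by the authors' deposited table. Detection was lowest in cluster 5, at 27.8% inside against 65.1% outside, and highest of the 7 in cluster 11, at 53.5% against 62.1%, by the authors' deposited table. The 6 clusters that do not list Myl6 (0, 3, 7, 8, 9 and 14) had a joint level of 91.9% of the mean and joint detection of 75.7% of cells. Clusters 0, 3, 7 and 8 therefore had low Myl9 without a listed fall of Myl6. Over all cells Myl6 was detected in 62.0% and Myl9 in 27.1%.

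Cluster 2 weighs on these falls, because its cells stand among the other cells in every other comparison. At 12.6% of cells it carried 71.7% of the summed Myl9 level and 42.4% of that of Myl6. With cluster 2 left out, 2 of the 11 Myl9 falls still passed 0.50 on the natural log scale, in clusters 12 (1.73-fold lower) and 0 (1.72-fold lower). The other 9 lay inside it, and the direction turned in cluster 1, to 1.33-fold higher, and in cluster 4, to 1.04-fold higher. Myl9 detection, with cluster 2 left out, was 21.5% in cluster 1 against 16.1% outside. In cluster 4 it was lower, at 15.1% against 17.1%. Of the 7 Myl6 falls, 6 still passed, from 1.65-fold lower in cluster 4 to 1.94-fold lower in cluster 5, and cluster 10 at 1.34-fold lower did not. The authors' constant stays inside these values and shrinks the folds of a weakly expressed gene more. The Myl9 and Myl6 counts are therefore not like for like.

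**Figure D5:**
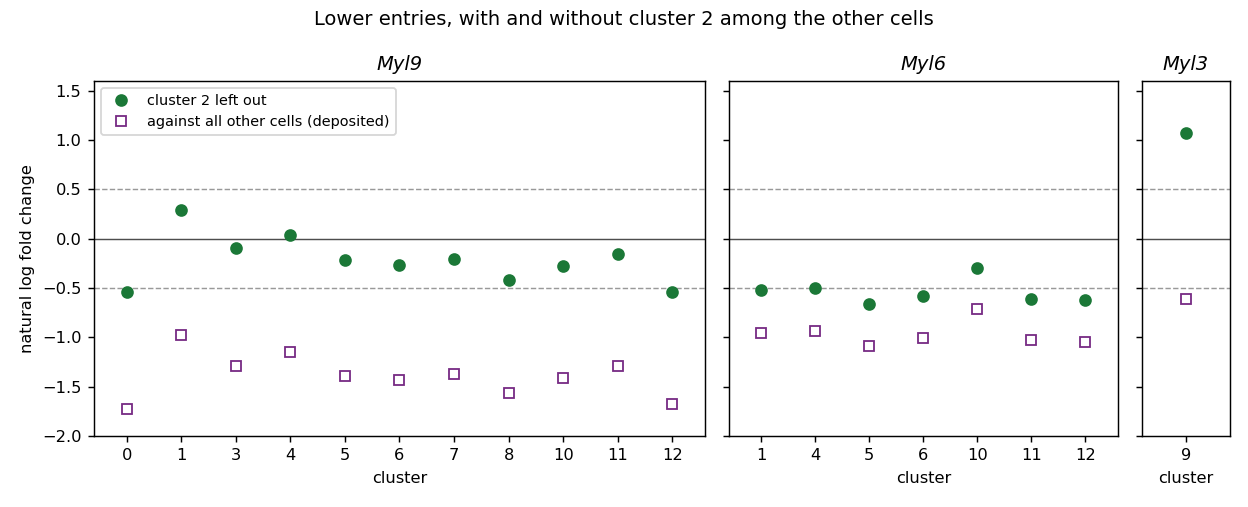
Natural log fold change of the lower entries of Myl9, Myl6 and Myl3 (one panel each) by cluster, with cluster 2 left out of the other cells (circles) and against all other cells as the authors' deposited table gives it (squares); dashed lines mark the table's threshold of 0.50. Of the Myl9 entries 2 stay past the threshold, of the Myl6 entries 6, and Myl3 in cluster 9 turns to higher.

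Myl3 in cluster 9 had a fold and a detection share that pointed in opposite directions. It was 1.85-fold lower by the authors' deposited table, the only 1 of the 6 members listed lower there, where 4.01% of the table's genes were. Yet 31.9% of the cells of cluster 9 detected Myl3, against 13.4% of all other cells, by the authors' deposited table. With cluster 2 left out, Myl3 was 2.92-fold higher in cluster 9, and detection outside it was 1.24%. Were the deposited logs to base 2, that difference would be 0.43 on the natural log scale. The table's threshold of 0.50 would then be a base 2 value too, smaller on that scale, and was not converted here. Cluster 9, with 3.24% of cells, held 7.39% of all cells that detected Myl3. Of the table's genes 9.61% were listed higher in cluster 9. It listed 3 of 7 smooth muscle markers as higher (Tagln, Acta2 and Des), 3 of 8 fibroblast and mesenchyme markers (Vim, Sparc and Col1a1) and 1 of 14 cardiomyocyte markers. That 1 was the slow troponin I gene Tnni1, 1.86-fold higher and detected in 71.5% inside against 14.9% outside by the authors' deposited table. Acta2, the smooth muscle actin that is also made in the early heart, was 3.52-fold higher in cluster 9 by the authors' deposited table. Whether cells of cluster 2 strayed into cluster 9 was not tested.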

How the data were processed

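The series has 4 libraries, 1 per genotype and stage, and the deposited file is 1 table of cluster markers. The authors ran Cell Ranger and Seurat on mm9, per the submitters' processing notes, with versions, cell filters, doublet treatment, clustering settings and the libraries pooled not given in the sources used here. A deposited header says only that fold changes are logs, and they were read as natural log values. That base was checked on Myl9, whose 13 entries leave clusters 9 and 14 a level of 106% of the mean under the natural base, against 371% under base 2 and -181% under base 10. A joint level of 371% is past the table's fold threshold, yet neither cluster lists Myl9, and a level below 0 is not possible. Detection is the deposited fraction of cells inside and outside a cluster, printed as a percent. The deposited p-values compare cells, so they served only as a filter. Depth and cell numbers are unknown, so no interval was made. Reads and count matrices were not used here.

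Cluster sizes were solved by least squares, since the share of all cells detecting a gene must be equal from each of its entries (residual SD 0.0228 percentage points). A level relative to the mean of all cells follows as F/(1-w+wF) from the fold F and size w. For one member the detection share over all cells differed by at most 0.0872 percentage points between entries. The solver was tested on simulated data (1633 genes, 15 clusters) and missed no size by more than 0.0114 percentage points. Those data held no error other than rounding, so this is not the error of the real sizes. Solved by the median, for example, cluster 11 held 1.88% of cells, against 1.86% by least squares. Promoters are the 250 bases before RefSeq starts, set beside GENCODE transcripts. The naming rule took all members, the 3 nearest genes of each, the 5 largest changes in cluster 2 of each fixed list, and list genes that moved against a member. One list gene is not reported here. Marker genes and examples from the regulator list were named beside these. The members and lists were chosen with earlier results of these data known. Alternatives were other thresholds, log base 2, sizes by the median or without sarcomere genes, a comparison without cluster 13 and other measures of likeness. Values were called unmoved within 10%, counts within 1.5 times. Python 3.11.15, numpy 2.4.6, pandas 2.3.3 and matplotlib 3.10.9 were used.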

Additional observations from a re-analysis of the deposited data

How the results depend on the processing

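No paired analysis was possible because each group has 1 library and the table names none. The 12 higher and 19 lower entries became 10 and 17 with the fold threshold raised to 0.75 on the natural log scale, 10 and 14 at 1, and 10 and 18 at a deposited adjusted p-value of at most 1e-10. With a larger detecting share of at least 50% they were 7 and 7, which leaves out all Myl9 falls by construction. The shares of detecting cells held by cluster 2 moved by less than 10% under both other ways of solving sizes. Read as log base 2, the table would leave clusters 9 and 14 a Myl9 level of 371% of the mean. The level in cluster 13 as a percent of that in cluster 2 was then 58.4% for Myl6, 45.9% for Myl7 and 41.3% for Myl9. Without cluster 2 the 7 Myl6 falls lay from -0.51 (cluster 5) to -0.26 (cluster 10) on the natural log scale, and 1 passed 0.50 there. That cut was not converted. A base 2 threshold of 0.50 is smaller on the natural log scale, so this count is not like for like with the main one. Under base 2 the Myl9 values without cluster 2 lay below 0 in clusters 1 and 4 too, at -0.03 and -0.18. Myl3 in cluster 9 was at 0.43 on the natural log scale, against 1.07 with natural logs. With cluster 13 also left out, 5 Myl6 falls and 2 Myl9 falls passed. With likeness by detection, Myl2 kept 0 of its 3 nearest genes, Myl7 and Myl9 1 each, Myl3 and Myl4 2 each and Myl6 all 3. With likeness over the clusters other than 2, Myl2 kept 1 of its 3, Myl3, Myl4 and Myl7 kept 2 each, and Myl6 and Myl9 all 3. Unknown depth limits what low detection shares can show.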

Other observations

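Of the 2212 entries, 15 had a fold and a detection share of opposite direction. In that group Myl3 in cluster 9 had the widest gap, 18.5 percentage points more cells inside than outside, followed by the nucleolin gene Ncl in cluster 11 at 9.6 points. For the other 13 entries the gap was at most 2.9 points either way, and they include the tropomyosin gene Tpm1 in cluster 11, 4.04-fold lower with 63.7% of cells inside and 63.0% outside, by the authors' deposited table. Those entries were picked out after their values were seen.

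Regulators of muscle genes were counted from a fixed list of 18 genes, 7 of which were in the table. In cluster 2, 4 were higher: Nkx2-5, Mef2c, Isl1 and Myocd. Myocd encodes a partner of SRF in muscle; it was 2.08-fold higher, with detection in 25.4% inside and 0.6% outside, by the authors' deposited table, and was chosen after its values were seen. Srf itself had 0 entries. In cluster 9, where Myl3 was detected in 31.9% of cells, Hand1, Gata6 and Isl1 were 2.89-fold, 1.90-fold and 1.80-fold higher by the authors' deposited table. Cluster 13 listed 1 of the regulators, Nkx2-5, at 2.06-fold higher by the authors' deposited table, with 25.7% of cells inside against 8.7% outside. Gata6 and Gata4 were 2.55-fold and 2.27-fold higher in cluster 14, for which no member is listed, by the authors' deposited table.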
